A study of Mus musculus with 25 samples.

Results

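The genes of 44 nuclear receptors on the mouse autosomes were read against 3 lists of peaks of H3K27me3, the histone mark of Polycomb repression. All 44 symbols matched a RefSeq record of assembly GRCm38.p6 (mm10), among 20665 autosomal protein-coding records in all. The members were chosen by name and receptor subfamily (NR1 to NR6 and NR0), not by a measured value. Earlier results of these data were known when they were chosen. Around each record a window of 5 kb was added on both sides, and the bases of that window lying inside a peak were counted. The share covered is the percent of the window inside peaks.

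Nuclear receptors are transcription factors, most of which switch genes on or off when a small fat-soluble molecule such as a steroid, a thyroid hormone, retinoic acid, a bile acid or a fatty acid binds them. Many bind DNA as heterodimers with a retinoid X receptor, and unliganded receptors often recruit corepressors that carry histone deacetylases. Each tissue uses its own subset of them: several direct liver, intestinal or steroid-producing programmes, while others mark the nervous system. Developmental regulators that a cell does not use are frequent targets of Polycomb repressive complex 2 (PRC2), whose catalytic subunit EZH2 places H3K27me3, the trimethyl mark on lysine 27 of histone H3.

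The study profiled H3K27me3 around the loss and return of PRC2 activity. Wild-type neural progenitor cells (NPC), obtained from ES cells and kept with EGF and FGF2, gave 6 CUT&RUN libraries: 2 under UNC1999 (2 uM) together with A395 (4 uM), both inhibitors of PRC2, 2 after washout of these compounds, and 2 untreated. Mouse embryonic fibroblasts (MEF) immortalized with c-myc gave 12 H3K27me3 ChIP-seq libraries, in 2 per group: line A as Ezh2 -/-, as Ezh2 -/- carrying retroviral pMSCV-Ezh2, and as wild-type; line B as Ezh2 -/- (reversible), with endogenous rescue of Ezh2, and as wild-type. Lines A and B are each a single immortalized line. The other 7 of the 25 libraries, of line A, were an input and profiles of RNA polymerase II, H3K4me3 and H3K36me3; they enter nothing below. The peak lists belong to the series as a whole, 1 each for line A, line B and NPC, and the sources used here do not say which libraries made each. The name of each MEF list holds names of wild-type and Ezh2-deficient libraries together, so neither MEF list can be read as 1 genotype. The NPC libraries were all wild-type, and the NPC list cannot be read as 1 treatment. No treatment, knockout or rescue could therefore be compared, no value has a replicate or an error, and no difference between lists was tested. Cell type, assay (CUT&RUN for NPC, ChIP-seq for MEF) and number of peaks differ together between the NPC list and the MEF lists and cannot be told apart.

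Promoter sequences are shown first for a few receptor genes, picked after their values were seen as examples of different patterns of peaks at a start site. Each is the RefSeq promoter of GRCm38.p6, the 250 bases before and 50 after a listed start site, written 5′ to 3′ on the gene's strand. Capitals mark CG dinucleotides, the sites of DNA methylation whose density separates CpG-island promoters from CpG-poor ones. Nr2e1 (chr10:42583541-42583840, minus strand) lay inside a peak in both MEF lists and far from any NPC peak:

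Nr2e1: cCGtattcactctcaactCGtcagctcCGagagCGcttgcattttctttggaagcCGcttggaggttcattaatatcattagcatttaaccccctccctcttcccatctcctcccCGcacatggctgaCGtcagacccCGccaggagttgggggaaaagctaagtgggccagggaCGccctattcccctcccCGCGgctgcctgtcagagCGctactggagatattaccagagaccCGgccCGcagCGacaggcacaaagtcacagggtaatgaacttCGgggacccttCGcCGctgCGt

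Rxrg (chr1:167598112-167598411, plus strand) was covered at its first start site in each list:

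Rxrg: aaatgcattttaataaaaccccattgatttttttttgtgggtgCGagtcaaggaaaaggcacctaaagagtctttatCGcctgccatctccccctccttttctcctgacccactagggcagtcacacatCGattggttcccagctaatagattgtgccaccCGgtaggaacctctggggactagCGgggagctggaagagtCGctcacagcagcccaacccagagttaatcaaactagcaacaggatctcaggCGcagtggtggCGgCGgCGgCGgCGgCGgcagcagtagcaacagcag

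Nr2f1 had peaks in line B alone. Its first start site (chr13:78198824-78199123, minus strand) lay in a gap between peaks and its second (chr13:78196400-78196699, minus strand), inside the gene, lay under one, so both are shown:

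Nr2f1 first start site: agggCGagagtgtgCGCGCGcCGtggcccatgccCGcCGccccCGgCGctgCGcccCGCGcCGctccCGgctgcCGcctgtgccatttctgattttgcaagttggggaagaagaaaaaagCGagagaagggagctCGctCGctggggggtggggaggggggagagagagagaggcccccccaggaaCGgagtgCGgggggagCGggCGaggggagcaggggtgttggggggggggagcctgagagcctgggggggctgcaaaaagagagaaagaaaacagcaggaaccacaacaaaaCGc
Nr2f1 second start site: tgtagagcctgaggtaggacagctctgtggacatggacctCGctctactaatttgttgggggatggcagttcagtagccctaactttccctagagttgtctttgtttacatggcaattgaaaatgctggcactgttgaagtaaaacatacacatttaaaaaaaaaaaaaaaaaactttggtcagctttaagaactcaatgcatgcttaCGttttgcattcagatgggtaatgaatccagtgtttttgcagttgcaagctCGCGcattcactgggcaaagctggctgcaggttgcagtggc

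Vdr (chr15:97908247-97908546, minus strand) and Thrb (chr14:17660710-17661009, plus strand) had a start site covered in NPC and in neither MEF list:

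Vdr: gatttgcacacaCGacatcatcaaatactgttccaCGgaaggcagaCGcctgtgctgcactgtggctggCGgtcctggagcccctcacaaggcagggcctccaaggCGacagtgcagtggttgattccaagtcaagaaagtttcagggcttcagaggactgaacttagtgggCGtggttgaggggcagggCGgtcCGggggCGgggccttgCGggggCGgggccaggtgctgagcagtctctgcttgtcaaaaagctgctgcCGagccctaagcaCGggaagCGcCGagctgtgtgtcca
Thrb: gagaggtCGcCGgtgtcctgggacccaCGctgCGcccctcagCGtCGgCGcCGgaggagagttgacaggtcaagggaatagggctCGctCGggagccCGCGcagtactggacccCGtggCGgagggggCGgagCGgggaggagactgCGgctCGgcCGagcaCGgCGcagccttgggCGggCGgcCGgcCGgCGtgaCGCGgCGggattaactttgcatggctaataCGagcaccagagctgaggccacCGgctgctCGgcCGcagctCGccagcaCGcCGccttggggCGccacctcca

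Nr0b2 (chr4:133553126-133553425, plus strand) is a CpG-poor promoter covered in both MEF lists:

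Nr0b2: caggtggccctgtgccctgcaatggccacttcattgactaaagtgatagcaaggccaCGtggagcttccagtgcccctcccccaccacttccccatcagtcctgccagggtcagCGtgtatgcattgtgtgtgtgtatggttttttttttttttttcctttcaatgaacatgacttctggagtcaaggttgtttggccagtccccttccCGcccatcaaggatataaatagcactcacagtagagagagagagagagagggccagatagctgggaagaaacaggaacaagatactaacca

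The Nr2e1 promoter held 19 CG dinucleotides in 300 bases and a CpG observed-over-expected ratio of 0.77, which is the CG count divided by that expected from its C and G content. The Rxrg promoter held 13, with a ratio of 0.60. Nr2f1 held 23 at the uncovered first start site, with a ratio of 0.72, and 4 at the covered second one, with a ratio of 0.29. The Thrb promoter was the densest shown, with 37 and a ratio of 0.95, against 15 and 0.55 for Vdr and 3 and 0.16 for Nr0b2. Peaks thus lay over both CG-dense and CG-poor receptor promoters.

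H3K27me3 peaks touched the window of most receptor genes in at least 1 list, as they did for most genes. No list had a peak for 7 of 44 receptor genes (15.9%), against 44.8% of all genes. Line A peaks reached 23 of the 44 receptor genes (52.3%), against 40.2% of all genes. Line B peaks reached 27 of 44 (61.4%), against 40.9% of all genes. NPC peaks reached 23 of 44 (52.3%), against 31.9% of all genes. Wide coverage was less common. At least 50% of the window was covered for 7 receptor genes by line A peaks, 6 by line B peaks and 1 by NPC peaks, against 9.98%, 9.71% and 3.91% of all genes. In percent of the receptor genes these counts are 15.9, 13.6 and 2.27. The median receptor gene had 1.205% of its window covered by line A peaks, 2.05% by line B peaks and 0.445% by NPC peaks, and the median over all genes was 0 in each list. These receptor medians rest on the window, since over the record alone they were 0% for line A, 0.101% for line B and 0% for NPC.

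Receptor genes are long, and a longer window meets a peak more often. The median window was 58.4 kb for receptor genes and 27.5 kb for all genes. Among windows of 20 to 100 kb, peaks of line A, line B and NPC reached 13, 16 and 13 of 25 receptor genes, against 41.8%, 42.0% and 31.3% of all genes of that size. Among windows over 100 kb the counts were 8, 8 and 9 of 12, against 51.9%, 55.7% and 46.6%. In the 7 windows under 20 kb they were 2, 3 and 1, against 33.7%, 34.1% and 27.6%. The receptor share stood above the background in both longer classes for each list, on only 25 and 12 receptor genes, and this was not tested. In the short class it stood below the background in line A and NPC, on counts of 3 or fewer genes.

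**Figure D1:**
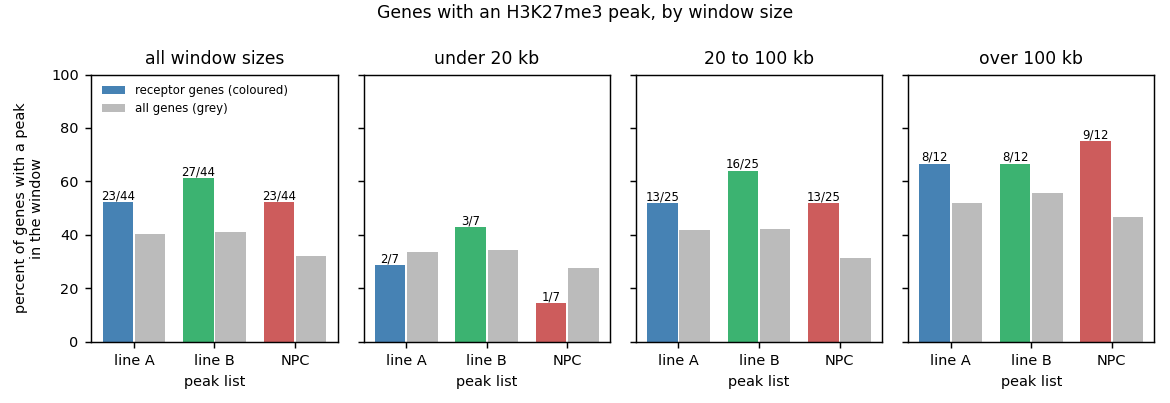
Percent of genes with at least 1 bp of the window inside an H3K27me3 peak (vertical axis), for the 3 peak lists (horizontal axis), over all windows and in 3 classes of window size. Coloured bars are the receptor genes, with their counts written above, and grey bars are all 20665 autosomal protein-coding genes; the NPC bar of receptor genes with windows over 100 kb, 9 of 12, is the tallest.

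By pattern over the lists, 11 receptor genes had a peak in all 3 lists, where 19.5% of all genes did. These were Ppara, Rorb, Nr1h4, Hnf4a, Rxra, Rxrg, Esr1, Nr3c2, Pgr, Nr5a1 and Nr5a2. Both MEF lists but not NPC reached 8 (all genes 12.5%), namely Rora, Nr1i2, Hnf4g, Nr2e1, Nr2e3, Esr2, Nr4a3 and Nr0b2. Line A and NPC shared Thrb, Pparg and Nr4a2 without line B (3.74% of all genes), and line B and NPC shared Rarb, Vdr and Nr4a1 without line A (2.71%). Line B alone reached Nr1h3, Nr1i3, Nr2f1, Esrra and Nr6a1 (6.28%), and line A alone reached Rxrb (4.55%). NPC alone reached Rara, Rarg, Nr1h2, Nr2f2, Esrrg and Nr3c1 (5.97%). When each list was cut to its 44807 widest peaks, the size of the NPC list, NPC alone reached 10 receptor genes, against 8.07% of all genes. No list had a peak at Thra, Nr1d1, Nr1d2, Nr2c1, Nr2c2, Nr2f6 or Ppard. These 7 are 15.9% of the receptor genes, and 44.8% of all genes had no peak in any list.

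**Figure D2:**
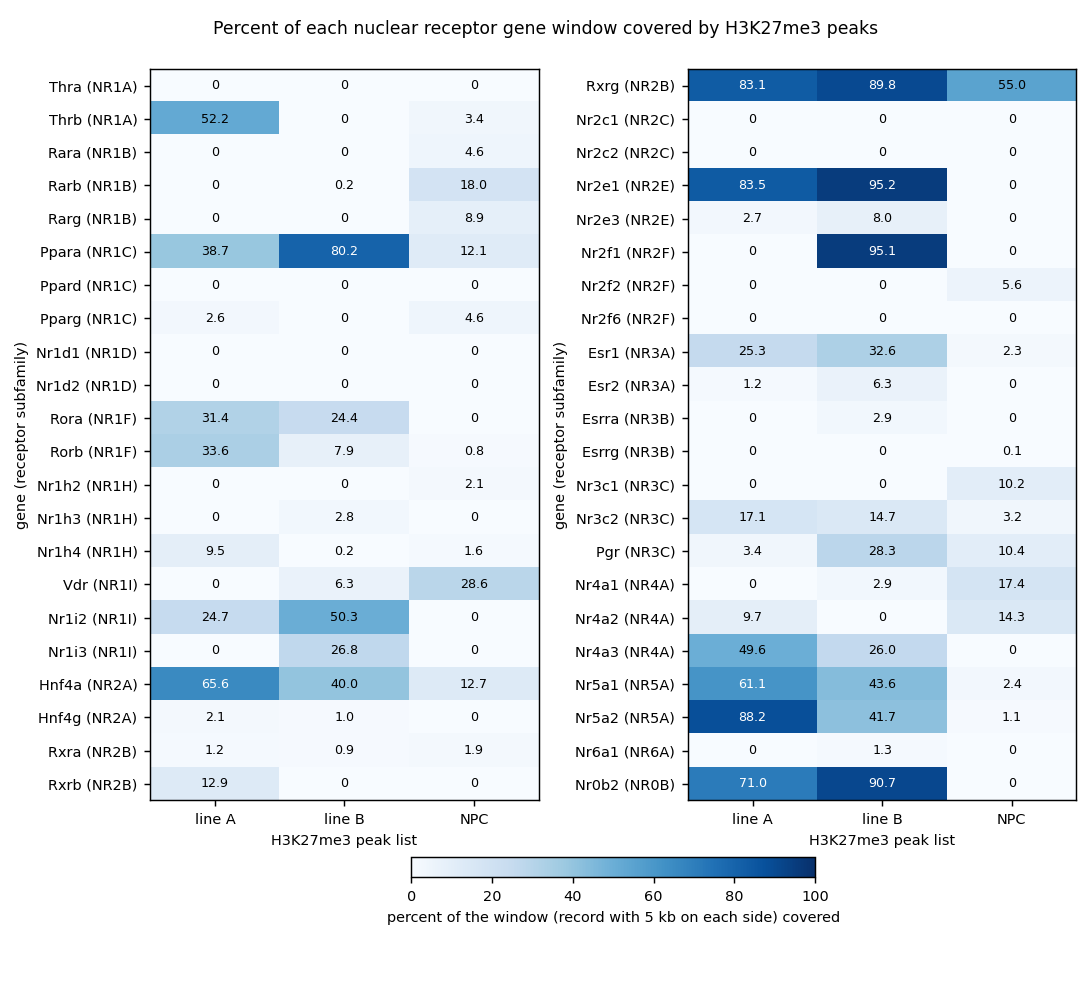
Percent of the window (gene record with 5 kb on each side) covered by H3K27me3 peaks for each of the 44 receptor genes (rows, with subfamily in brackets) in the line A, line B and NPC lists (columns). Darker blue is more covered; Rxrg is dark in each column, Nr2f1 in line B alone, and the largest NPC values after Rxrg are Vdr (28.6) and Rarb (18.0).

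The thyroid hormone receptors and the retinoic acid receptors are classical hormone-dependent regulators of development. Thrb (chr14:17659225-18040097, plus strand) encodes thyroid hormone receptor beta. Line A peaks covered 204 kb of its window (52.2%) in 62 pieces, line B peaks covered none, and NPC peaks covered 13.3 kb (3.41%). Of the NPC coverage, 10.9 kb was 1 peak running from 3.45 kb before to 7.48 kb past the 5′ end of the record, over the first start site shown above. In line A that same start site lay in a gap of 786 bp between peaks of 764 and 4300 bp, and the second listed start site was covered. The nearest line B peak to the Thrb record was 26.7 kb away. Its paralog Thra had no peak in its window; the nearest peaks lay 60.8 kb away in line A, 63.7 kb in line B and 168 kb in NPC. The 3 retinoic acid receptors were covered almost solely in NPC.

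Rarb (chr14:16430839-17082331, minus strand), itself a textbook target gene of retinoic acid, had 119 kb covered in NPC (18.0% of its window) in 29 peaks, the widest 24.8 kb. In line B it had 1.32 kb (0.199%) in 3 peaks, none of which shared a base with an NPC peak, and in line A it had none. The 1 start site listed for Rarb, at chr14:16575476 far inside the record, lay under no peak in any list. At the 5′ end of the record, NPC had a peak of 1.31 kb starting 0.004 kb inside it. Another NPC peak, of 0.66 kb, lay upstream of that end. Rarg had 2.92 kb covered in NPC (8.95%) and Rara 2.65 kb (4.64%), and neither had a peak in the MEF lists. Rara lay just outside the window limit there, with its nearest line B peak 5.86 kb and its nearest line A peak 6.45 kb from the record.

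The peroxisome proliferator-activated receptors sense fatty acids. Ppara (chr15:85734910-85806851, plus strand), which drives fatty acid breakdown in liver, had 31.7 kb covered in line A (38.7%), 65.7 kb in line B (80.2%) and 9.90 kb in NPC (12.1%). Coverage was nested at this gene: all of the line A coverage and all of the NPC coverage fell inside line B peaks. Its start site lay under a peak in line B and NPC, and in line A in a gap of 1421 bp. Pparg, the regulator of fat cell formation, had 3.66 kb in line A (2.62%) and 6.42 kb in NPC (4.60%), with none in line B, where the nearest peak lay 101 kb away. Ppard had no peak in its window, and the nearest, in line B, lay 50.3 kb from the record.

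The ROR genes encode retinoid-related orphan receptors that act in the cerebellum, the retina and the clock. Rora (chr9:68653404-69388246, plus strand) has the largest window of the receptor genes, 745 kb. Line A peaks covered 234 kb of it (31.4%) in 68 pieces and line B peaks 181 kb (24.4%) in 76 pieces. The 2 MEF lists shared 96.8 kb there, 41.4% of the line A coverage and 53.4% of the line B coverage. NPC had no peak in the window, and its nearest lay 6.24 kb from the record. Rorb (chr19:18930609-19111196, minus strand) had 64.0 kb covered in line A (33.6%), 15.1 kb in line B (7.90%) and 1497 bp in NPC (0.785%). That single NPC peak of Rorb lay 3.02 kb outside the record, wholly inside peaks of both MEF lists. The REV-ERB genes Nr1d1 and Nr1d2, which encode the clock repressors that compete with the RORs for DNA sites, had no peak in any list. For Nr1d2 the nearest peaks were close, 5.33 kb from the record in line A and 6.21 kb in line B, and for Nr1d1 62.0 kb or more away.

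Receptors for oxysterols, bile acids, vitamin D and foreign compounds make up the rest of NR1. Vdr (chr15:97854427-97908296, minus strand), the vitamin D receptor, had 18.3 kb covered in NPC (28.6%), chiefly a peak of 17.4 kb of which a part runs beyond the window, over the start site shown above. In line B a peak of 4.00 kb (6.27%) ended 0.372 kb upstream of that start site and lay wholly inside NPC peaks. Line A had none, with its nearest peak 51.8 kb away. Nr1i2 (chr16:38248349-38294849, minus strand) encodes PXR, the xenobiotic sensor of liver and intestine. It had 13.9 kb covered in line A (24.7%), 28.4 kb in line B (50.3%) and none in NPC, where the nearest peak was 259 kb off. Nr1i3, which encodes the related sensor CAR, had 3.99 kb in line B (26.8%) and none in the other lists; its window also holds Apoa2 and Tomm40l.

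The bile acid receptor gene Nr1h4 (chr10:89454234-89533645, minus strand) had 8.49 kb covered in line A (9.50%), 0.212 kb in line B (0.237%) and 1.39 kb in NPC (1.56%). Its line B value rests on 1 peak of 212 bp lying 0.393 kb outside the record, and the NPC peak fell wholly inside line A coverage. Of the oxysterol receptors, Nr1h3 had 1 peak of 0.806 kb in line B (2.80%) and Nr1h2 had 1 of 0.306 kb in NPC (2.13%). These are among the thinnest contacts counted as a peak, all 3 under 1 kb.

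The NR2 receptors include hepatocyte factors, the shared heterodimer partners and the neural orphan receptors. Hnf4a (chr2:163506811-163572907, plus strand), a main regulator of hepatocyte genes, had 49.9 kb covered in line A (65.6%), 30.4 kb in line B (40.0%) and 9.68 kb in NPC (12.7%). Its first start site was covered in both MEF lists and not in NPC. The 5 NPC peaks all lay in the 3′ part of the record, beginning 36.3 kb past the 5′ end, and 97.4% of their length fell inside line A peaks. Hnf4g, its intestinal relative, had 3.34 kb in line A (2.07%), 1.68 kb in line B (1.04%) and none in NPC.

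The retinoid X receptors are the common partners of many NR1 receptors, and their 3 genes differed. Rxrg (chr1:167598362-167639623, plus strand), the gene with the narrowest tissue range of the 3, had 42.6 kb covered in line A (83.1%), 46.1 kb in line B (89.8%) and 28.2 kb in NPC (55.0%). It was the 1 receptor gene with at least 50% of its window covered in NPC, and 95.6% of that NPC coverage lay inside line B peaks. Its second listed start site, inside the gene, fell between peaks in both MEF lists, in gaps of 2078 bp in line A and 1290 bp in line B. Rxra (chr2:27676445-27763319, plus strand) had 1 peak per list at nearly the same place, 2.02 to 2.61 kb past the 3′ end. These were 1.18 kb in line A (1.22%), 0.881 kb in line B (0.909%) and 1.88 kb in NPC (1.94%), and the line A and line B peaks lay wholly inside the NPC one. Rxrb had 2.14 kb covered in line A (12.9%), 2.86 kb past its 3′ end, in a window that also holds Col11a2, H2-Ke6 and Slc39a7. Neither Rxra nor Rxrb had a peak over the record itself.

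Nr2e1 (chr10:42561963-42583590, minus strand) encodes TLX, which maintains neural stem cells. Line A peaks covered 26.4 kb of its window (83.5%) and line B peaks 30.1 kb (95.2%). The line A coverage came chiefly from 1 peak of 34.5 kb and the line B coverage from 1 peak of 39.9 kb, both of which ran from upstream of the window across the start site. All of the line A coverage lay inside line B coverage. NPC had none, and the nearest NPC peak was 279 kb from the record, so MEF and NPC lists did not overlap at this locus. Nr2e3, a photoreceptor gene, had 0.755 kb in line A (2.69%) and 2.25 kb in line B (8.02%) with no base in common, and none in NPC.

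Nr2f1 (chr13:78188971-78198873, minus strand) encodes COUP-TFI, a patterning factor of the cortex. In line B 18.9 kb of its window was covered (95.1%), from 2 peaks of 34.2 and 19.0 kb that reach beyond it on both sides. The gap of 984 bp between them held the first start site, 448 bp from one peak and 537 bp from the other. Neither line A nor NPC had a peak in the window, and the nearest lay 11.3 kb away in line A and 12.6 kb in NPC. This was the receptor gene with the greatest difference in covered share between line A and line B. Its paralog Nr2f2, which encodes COUP-TFII, had 1.39 kb covered in NPC (5.61%) and none in the MEF lists, whose nearest peaks lay 511 and 515 kb from the record in line A and line B. Nr2f6, the third of this group, had no peak in any list, nor had Nr2c1 and Nr2c2, which encode the testicular orphan receptors.

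**Figure D3:**
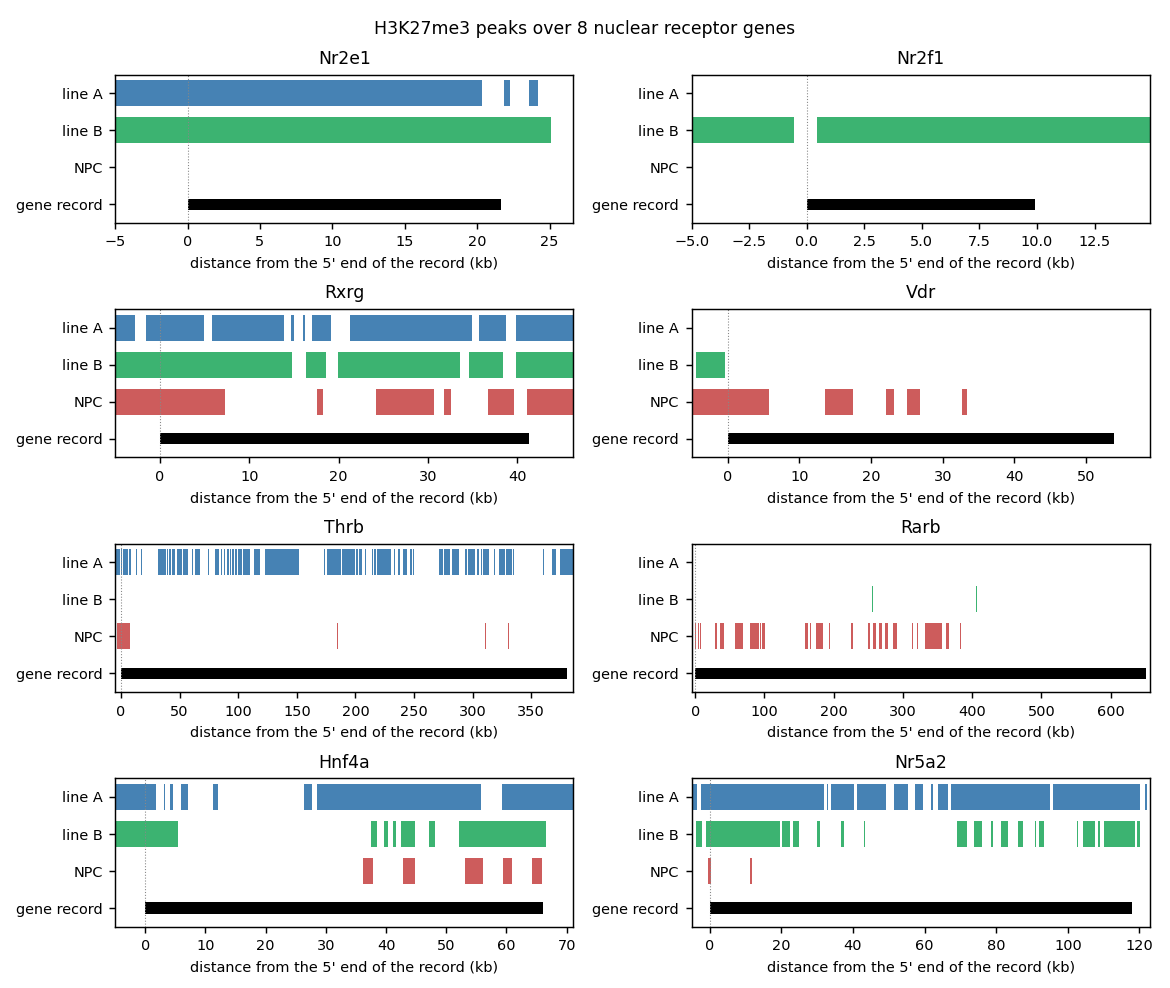
H3K27me3 peaks over the windows of 8 receptor genes, as distance in kb from the 5′ end of the gene record (horizontal axis, in the direction of transcription), with rows for the line A, line B and NPC lists and a black bar for the record. Coloured blocks are peaks cut at the window edge: Nr2e1 is filled in the MEF rows and empty in NPC, Rarb is filled chiefly in NPC with 29 peaks, Thrb in line A with 62, and the Nr2f1 start lies in the 984 bp gap.

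The steroid receptors of NR3 respond to sex steroids and to adrenal steroids. Esr1 (chr10:4611989-5005633, plus strand), the estrogen receptor alpha gene, had 102 kb covered in line A (25.3%) in 53 peaks, 131 kb in line B (32.6%) in 66 peaks and 9.33 kb in NPC (2.31%) in 11 peaks. Its second listed start site lay under a peak in every list, and the first lay under none. Of the NPC coverage, 89.8% fell inside line B peaks and 79.1% inside line A peaks. Esr2, the beta form, had 0.798 kb in line A (1.19%), 4.21 kb in line B (6.30%) and none in NPC. Pgr (chr9:8898900-8968611, plus strand), the progesterone receptor, had 2.74 kb in line A (3.43%), 22.5 kb in line B (28.3%) and 8.33 kb in NPC (10.4%). Its start site was covered in line B and NPC and not in line A, whose peaks lay in the distal part of the gene.

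Nr3c2 (chr8:76898083-77245012, plus strand), the mineralocorticoid receptor gene, had 61.0 kb covered in line A (17.1%), 52.5 kb in line B (14.7%) and 11.3 kb in NPC (3.17%). A peak lay over its start site in line B and NPC, and in line A the same site fell in a gap of 1164 bp. Its relative Nr3c1, which encodes the glucocorticoid receptor, had no MEF coverage and 12.1 kb in NPC (10.2%) in 5 peaks. Of the estrogen-related receptors, regulators of mitochondrial genes, Esrra and Esrrg were read, and both had under 1 kb covered. Esrra had 0.605 kb in line B (2.87%), all outside its record in a window shared with 4 other protein-coding genes, and Esrrg had 0.649 kb in NPC (0.105% of a 616 kb window).

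The NR4A genes encode orphan receptors induced within minutes to hours by growth factors and activity. Nr4a3 had 25.5 kb covered in line A (49.6%), 13.4 kb in line B (26.04%) and none in NPC. Nr4a2, needed by midbrain dopamine neurons, had 2.64 kb in line A (9.70%) and 3.88 kb in NPC (14.3%), all of it upstream of the record, and none in line B. These upstream peaks of Nr4a2 shared 2.46 kb. Nr4a1 had 5.37 kb in NPC (17.4%), 0.883 kb in line B (2.86%) and none in line A. Its listed start site lies inside the gene, under an NPC peak 12.3 to 15.1 kb past the 5′ end of the record. No peak covered that 5′ end in any list. Each of the 3 NR4A genes thus had a peak in a different pair of lists.

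The NR5A genes, regulators of steroidogenic and of liver and gut programmes, were the most covered subfamily with more than 1 gene in line A, with 82.8% of their summed windows inside line A peaks, 42.0% inside line B peaks and 1.37% inside NPC peaks. Nr5a2 (chr1:136842562-136960448, minus strand), which encodes LRH-1, had 113 kb covered in line A (88.2%), 53.3 kb in line B (41.7%) and 1.42 kb in NPC (1.11%). Of its line B coverage 97.7% fell inside line A peaks, and 1 of its 2 NPC peaks, 0.843 kb wide, lay over the first start site, which was covered in each list. Nr5a1 (chr2:38692656-38714542), the steroidogenic factor 1 gene, had 19.5 kb in line A (61.1%), 13.9 kb in line B (43.6%) and 0.765 kb in NPC (2.40%). All NPC coverage of both genes lay inside peaks of both MEF lists. Nr6a1, the germ cell nuclear factor gene that neighbours Nr5a1, had 2.75 kb in line B (1.29%) and none elsewhere; the 2 windows overlap by 1174 bp, in which no list had a peak.

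Nr0b2 (chr4:133553376-133556686, plus strand) encodes SHP, a bile acid-induced corepressor that lacks a DNA-binding domain. It had 9.45 kb covered in line A (71.0%), 12.1 kb in line B (90.7%) and none in NPC, where the nearest peak was 52.3 kb away. All of its record lay inside peaks in both MEF lists.

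Coverage was concentrated in few receptor genes. Summed over the 44 windows, the covered share was 18.3% for line A, 13.2% for line B and 4.84% for NPC, against 10.9%, 9.28% and 5.38% of the windows of all genes. Rora held 22.9% of the line A sum and 24.5% of the line B sum, and Rarb held 44.2% of the NPC sum. Without that gene the receptor shares were 16.3%, 11.5% and 3.07%. In NPC more receptor genes than the background share had a peak, while the covered length was below the background.

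The MEF lists shared 416 kb over the receptor windows, which is 40.7% of the line A coverage and 56.3% of the line B coverage, against 48.8% and 57.2% over all genes. NPC shared 78.8 kb with line A, which is 7.70% of the line A and 29.1% of the NPC coverage, against 22.1% and 44.8% over all genes. With line B it shared 76.6 kb, which is 10.4% of the line B and 28.4% of the NPC coverage, against 21.4% and 37.0%. The NPC shares rest on Rarb, whose NPC peaks met none of the MEF coverage. Without Rarb, 52.2% of the NPC coverage lay inside line A peaks and 50.8% inside line B peaks.

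Promoters were listed for 40 of the 44 receptor genes, 60 in all, and Thra, Hnf4g, Nr3c1 and Nr5a1 had none. A peak lay over at least 1 listed start site for 10 of 40 receptor genes by line A peaks, 10 by line B peaks and 9 by NPC peaks (25.0%, 25.0% and 22.5%), against 13.2%, 14.4% and 9.35% of all genes with a listed promoter. The first start site of Nr5a2, the second of Esr1 and the first of Rxrg were covered in each list. Receptor promoters had a median CpG ratio of 0.60 and a median GC content of 58.8%, beside 0.59 and 57.0% for the 20085 promoters of all genes. The 19 receptor promoters with a peak over the start in 1 or more lists had a median ratio of 0.46, and the 41 without had 0.61. Over all genes the same medians were 0.41 and 0.64. The order of these pooled medians was thus the same for receptor genes and for all genes. By list, the receptor promoters covered in line A, line B and NPC had median ratios of 0.33, 0.43 and 0.55. Over all genes these were 0.37, 0.44 and 0.53, so the NPC medians lay closest to those of uncovered promoters. Several promoters of 1 gene are not independent.

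**Figure D4:**
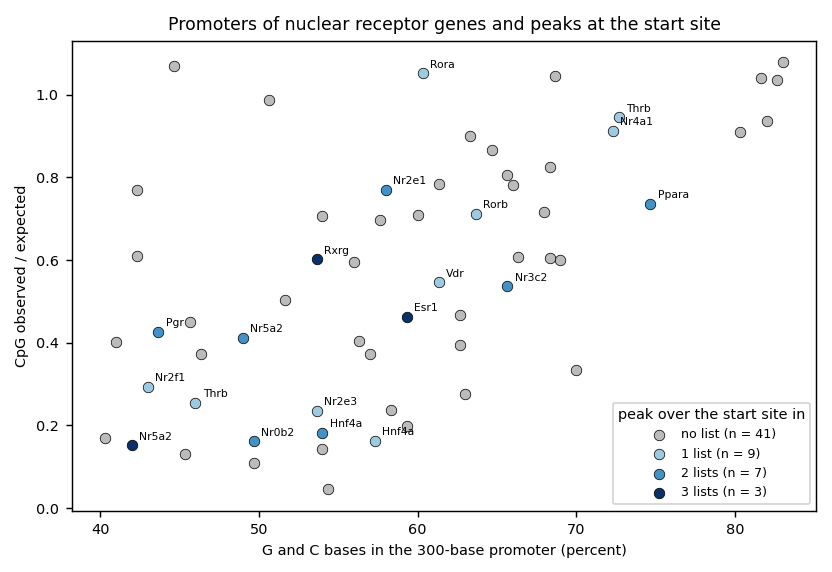
CpG observed-over-expected ratio (vertical axis) against percent of G and C bases (horizontal axis) for the 60 listed promoters of 40 receptor genes, each point 1 promoter of 300 bases. Blue points, darker for more lists, have a peak over the start site and carry the gene name, and the 41 grey points have none; covered promoters run from the CpG-poor Nr5a2 (0.15) to Rora (1.05).

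At several receptor genes peaks stood on both sides of a start site with the site itself free. A start site lay in such a gap for 5 of the 40 receptor genes by line A peaks, 6 by line B peaks and 0 by NPC peaks, against 3.4%, 3.28% and 1.25% of all genes with a listed promoter. Receptor genes have more listed start sites each (60 for 40 genes) than all genes (20085 for 16457), and the part of this in the counts was not tested. The gaps were 786 to 2160 bp wide, at Thrb, Ppara, Nr3c2, Nr1i2 and Rxrg in line A and at Nr2f1, Rora, Rorb, Hnf4a, Nr1i3 and Rxrg in line B. The narrowest were Thrb in line A and Hnf4a in line B (892 bp, at its second start site). Only gaps with a peak within 2 kb on both sides were counted, and a gap may also hold signal below the unstated peak threshold. The hexamer AGGTCA, the core that many nuclear receptors bind, was searched on both strands. It occurred in 11 of the 60 receptor promoters (18.3%) and in 14.7% of all promoters, and of those printed above in Thrb alone.

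Genes that supply, remove or act with receptor ligands are given by lists. Line A peaks reached 3 of 14 coregulator genes, line B peaks 7 and NPC peaks 1. The most covered was Ppargc1a, the coactivator of mitochondrial genes, with 7.81% of its window inside line A peaks, 6.35% inside line B peaks and 2.01% inside NPC peaks. By the summed share of the 3 lists it was followed by the corepressor deacetylase Hdac3, covered in line B alone (5.19%), and the coactivator Crebbp, with 1.88% in line A, 2.36% in line B and none in NPC. No coregulator reached 50% in any list. Of the 14, 7 had no peak in any list, among them Ncor1, a corepressor of unliganded receptors.

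Line A peaks reached 8 of 14 retinoid-handling genes, line B peaks 11 and NPC peaks 8. Aldh1a2, the main enzyme making retinoic acid in the embryo, had 98.5% of its window covered by line A peaks, 91.3% by line B peaks and 11.9% by NPC peaks. Stra6, the retinol uptake receptor, had 69.9%, 79.8% and 47.0% in the same order of lists. Cyp26a1, which degrades retinoic acid, had 64.8%, 21.9% and 73.1%, the highest NPC value among the receptor and pathway genes named here. Of 13 genes of steroid synthesis and turnover, 9, 9 and 5 had a peak in line A, line B and NPC. The cholesterol side-chain cleavage gene Cyp11a1 had 66.8%, 71.2% and 58.0%, Srd5a2, which makes dihydrotestosterone, had 78.4%, 17.3% and 34.1%, and Hsd3b1 had 35.9%, 85.0% and 0%.

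Of 9 genes for thyroid hormone and vitamin D, 6, 6 and 3 had a peak in line A, line B and NPC. Dio3, which inactivates thyroid hormone, had 69.1%, 82.1% and 32.3% covered. Cyp24a1, the vitamin D-degrading enzyme and a target of the vitamin D receptor, had 9.36%, 88.7% and 0%, a different order from Vdr, which was most covered in NPC. Dio1, which activates thyroid hormone in liver, had 48.3%, 37.4% and 0%. Of 15 bile acid and lipid targets, 11, 8 and 7 had a peak. The bile acid enzyme Cyp8b1 had 91.8%, 50.1% and 0%, Cyp27a1 had 48.8%, 34.9% and 5.72%, and the CAR target Cyp2b10 had 37.2%, 1.57% and 45.6%. All these counts stand beside the 40.2%, 40.9% and 31.9% of all genes with a peak.

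**Figure D5:**
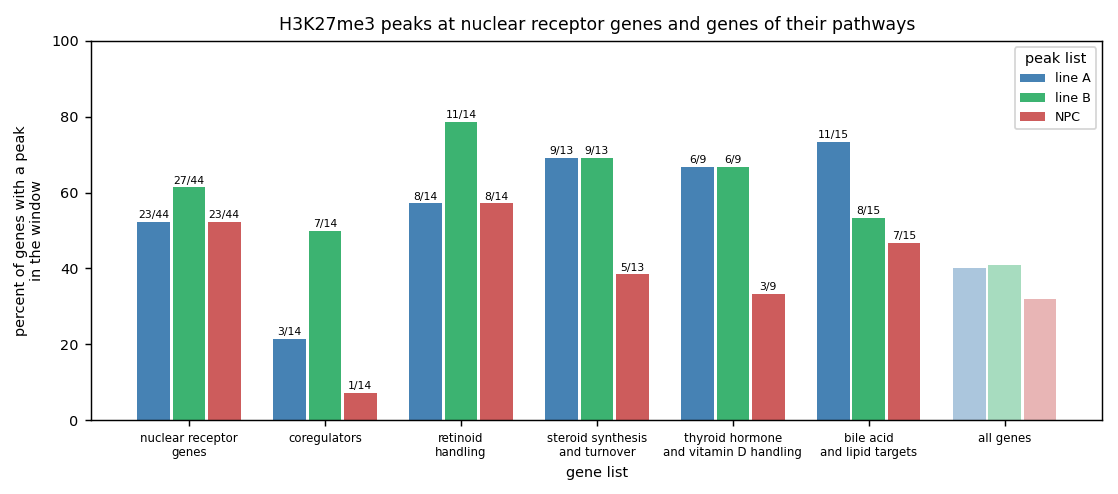
Percent of genes with a peak in the window (vertical axis, from 0 to 100) in the line A, line B and NPC lists (blue, green and red bars) for the receptor genes, 5 lists of genes that act with or through them, and all genes in paler bars; counts are written over the bars. Coregulators are low in line A (3 of 14) and NPC (1 of 14), and retinoid-handling genes are highest in line B (11 of 14).

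As a check of the labels, peaks were read at genes that mark the cell types, where the mark is a sign of silence and not of expression. Of 10 fibroblast genes, line A peaks reached 1 (Col1a1, 0.893 kb), line B peaks 0 and NPC peaks 2 (Pdgfrb and S100a4). Line A peaks reached 8 of 10 neural progenitor genes, line B peaks 9 and NPC peaks 3. Sox2, Pax6, Sox1, Olig2 and Nes had none in NPC. Of genes of other cell types, 2, 4 and 3 of 4 hepatocyte genes, 3, 3 and 3 of 3 blood genes and 3, 2 and 2 of 3 neuronal genes had a peak in line A, line B and NPC. Expression was not analysed here. Between chromosomes the lists were uneven on chromosome 7, where 34.5%, 24.8% and 47.2% of genes had a peak in line A, line B and NPC. Nr1h2 and Nr2f2, both with a peak in NPC alone, lie there, and the part of the chromosome in their pattern was not tested. Without that chromosome line A, line B and NPC peaks reached 23, 27 and 21 of 42 receptor genes, against 40.9%, 42.7% and 30.2% of all genes. NPC peaks alone then reached 4 of 42, against 4.73%.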

How the data were processed

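The mark was read with antibody clone C36B11, by CUT&RUN (6 libraries, NPC) or ChIP-seq (12 libraries, MEF), per the labels' protocols. The values used were the positions of peaks in 3 lists deposited by the authors for the whole series, with chromosome, start and end and no other unit: no score, fold, signal or p-value per peak. Per the submitters' processing notes, which give no roles, the tools were MACS2 2.1.1.20160309, Bowtie2 2.2.9, deepTools, Picard and DESeq2, with mm10 and dm6 as builds. The sources used here give no peak threshold, control or pooling. The lists held 86235 (line A), 81972 (line B) and 44807 (NPC) peaks covering 276, 236 and 137 Mb, all on the 19 autosomes. Depth is unknown. The labels do not say whether replicates were separate cultures.

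Starts were read as 0-based and are printed 1-based. Covered bases were counted with Python 3.11.15, numpy 2.4.6 and pandas 2.3.3 over the RefSeq record (GRCm38.p6) with 5 kb on each side, and a gene had a peak where at least 1 bp was covered. The script was tested on simulated data of 4000 intervals, where it gave the same bases as counting one by one. A start site was covered where a peak held that base. Figures were drawn with matplotlib 3.10.9.

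The members, gene lists and alternatives were chosen with earlier results of these data known. Described in full are receptor genes with 50% or more of the window covered in a list, a difference of 30 or more percentage points between lists, or a peak in every list, and the 3 most covered genes of each pathway list. The promoters printed and the other members' details were chosen after their values were seen. Some genes of the lists are not reported here by name. No test was made, since lists carry no samples, and genes are not replicates. Alternatives were windows of 0, 2 and 10 kb around the record or 2 kb around its ends, coverage of at least 1000 bp, 10% or 50%, peaks of at least 1000 bp, the 44807 widest peaks of each list, peaks under 3 kb apart joined, and the receptor genes without chromosome 7.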

Additional observations from a re-analysis of the deposited data

How the results depend on the processing

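Direction and depth could not be judged against replicates, because the lists hold neither samples nor counts, and a peak's absence may be a weak signal. Of the recomputed counts, 57 stayed within 1.5 times the main count and 20 moved further. Asking for 10% of the window left 15 receptor genes in line A, 15 in line B, 9 in NPC, 3 in all 3 lists and 21 in no list. Asking for 50% left 7, 6 and 1, with 1 in all 3 lists, 2 in both MEF lists alone, 0 in NPC alone and 34 in none. Within 2 kb of either end of the record NPC reached 14, all 3 lists 6 and no list 14. With peaks of at least 1000 bp only, all 3 lists reached 7 and no list 11. The record alone gave 11 in no list, and so did a minimum of 1000 bp covered. These settings shorten the window, drop narrow peaks or ask for more bases by construction. Shares of all genes were not computed for them, apart from the 50% share of each list given above. Whether all genes fall off in the same way was therefore not tested. With the same number of widest peaks in each list, NPC alone reached 10 in place of 6, and both MEF lists without NPC 6 in place of 8. The medians sit near 0 and are not stable. Across all settings the median covered share was 0 to 2.51% in line A, 0 to 3.09% in line B and 0 to 0.887% in NPC. The line B median was 0.101% for the record alone, 0.0569% with equal numbers of peaks and 0 with peaks of at least 1000 bp. Leaving out chromosome 7, chosen after seeing the data, changed no count by over 1.5 times, but the NPC median was then 0.0526%. No replicate could be left out. No paired analysis was possible because the peak lists carry no sample columns and no result comes from a test.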
